A study of Homo sapiens with 4 samples.

Results

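PI15 encodes a secreted inhibitor of trypsin, and it is described here together with 5 relatives, PI16, CRISPLD1, CRISPLD2, GLIPR1 and GLIPR2, in DAOY, an established line from a cerebellar medulloblastoma. The genes were found by symbol, and all 6 are among the 20363 genes of the raw count table. PI15 was chosen because its RNA was higher with SAG in these same libraries, so its values for SAG are given as a description with no test. The relatives were chosen by family and not by their counts.

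What these proteins share is the CAP domain, named after cysteine-rich secretory proteins, antigen 5 and pathogenesis-related protein 1, a compact fold that occurs in venoms, in the reproductive tract and in plant defence. PI15 and PI16 carry the name of peptidase inhibitors, CRISPLD1 and CRISPLD2 join the CAP domain to LCCL domains and are secreted, and GLIPR1 was first described in glioma and is induced by p53. The label of secreted inhibitors does not hold for all of them, since GLIPR2 is attached to the Golgi membrane on its cytosolic side and lacks a signal peptide, and inhibition of a protease is best known for PI15.

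The cells were either controls (CTL) or overexpressed ZNF521, a zinc finger co-factor of transcription, and each kind was treated with the solvent DMSO or with SAG, an agonist of SMO that switches on the Hedgehog pathway. In the study's lentiviral vectors the cDNA is followed by EGFP, and transduced cells were sorted for EGFP. The sources used here do not settle whether the controls of these libraries carried the empty vector or were wild type, whether the human or the mouse cDNA was used, nor which dose of SAG the sequenced cells received. There was 1 library for each of the 4 groups, called CTL_DMSO, CTL_SAG, ZNF521_DMSO and ZNF521_SAG after their cells and treatment, so that no group has a replicate.

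The 4 libraries held 12294833 to 16314685 counts. CTL_DMSO stood apart, with an SD of log2 deviations from the gene means of 0.273 against 0.126 to 0.142 in the others. The ratios of the 5 tested genes are given below also for the pair of libraries without it. Most values of other genes and of gene lists rest on all 4 libraries. GLI1, the Hedgehog target that reports on SAG, was 5.44-fold higher with SAG, and ZNF521 was 2.77-fold higher in ZNF521 cells, so both labels hold. In the pairs without CTL_DMSO these folds were 7.19 and 2.76. Of 6 markers of granule neuron progenitors 4 averaged over 10 normalized counts, while the defining ATOH1 and BARHL1 were near 0, and the summed level of 4 mesenchymal markers was 35547 to 54457 (mostly VIM, COL1A1 and COL1A2, with LUM low) and that of 4 epithelial markers 12864 to 14788 (mostly KRT8 and KRT18, with EPCAM and CDH1 low). The summed level of 4 neuronal markers was 338.3 to 452.8 (mostly SYP) and that of 3 astrocyte markers 216.5 to 230.2 (mostly SLC1A3). That of 3 endothelial markers was 65.0 to 86.8, and that of 4 leukocyte markers 15.2 to 22.1. A normalized count is the raw count divided by the authors' size factor of its library. In bulk RNA, fewer cells with a transcript and less transcript per cell cannot be told apart.

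PI15 RNA was low without the agonist and high with it, in both kinds of cells. Its normalized count was 122.6 in CTL_DMSO, 614.6 in CTL_SAG, 163.6 in ZNF521_DMSO and 687.6 in ZNF521_SAG. Both SAG libraries thus lay far above both DMSO libraries, and the raw counts behind them ran from 122 to 815. The ratio of SAG to DMSO was 5.01 in CTL cells (95% interval 4.11 to 6.15) and 4.20 in ZNF521 cells (3.54 to 5.01). For ratios of 2 libraries, here and below, the intervals are exact (Clopper-Pearson) and cover counting error only. The ratio in ZNF521 cells does not use CTL_DMSO. In the fit across all genes, in which SAG and ZNF521 are additive terms, the log2 fold change of PI15 for SAG was 2.19 with a standard error of 0.17, a 4.57-fold difference that ranks 5 among the 14970 genes tested, counted from the highest. The SAG fold in ZNF521 cells divided by that in CTL cells was 0.839, with a counting interval of 0.647 to 1.09 that includes 1. Counting intervals of such ratios of folds, here and below, are normal approximations on the log2 scale. The ratio of folds was not tested, since each library stands alone. PI15 lies on the plus strand of chromosome 8 of hg38, from 74824534 to 74855029 in GENCODE 44.

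**Figure D1:**
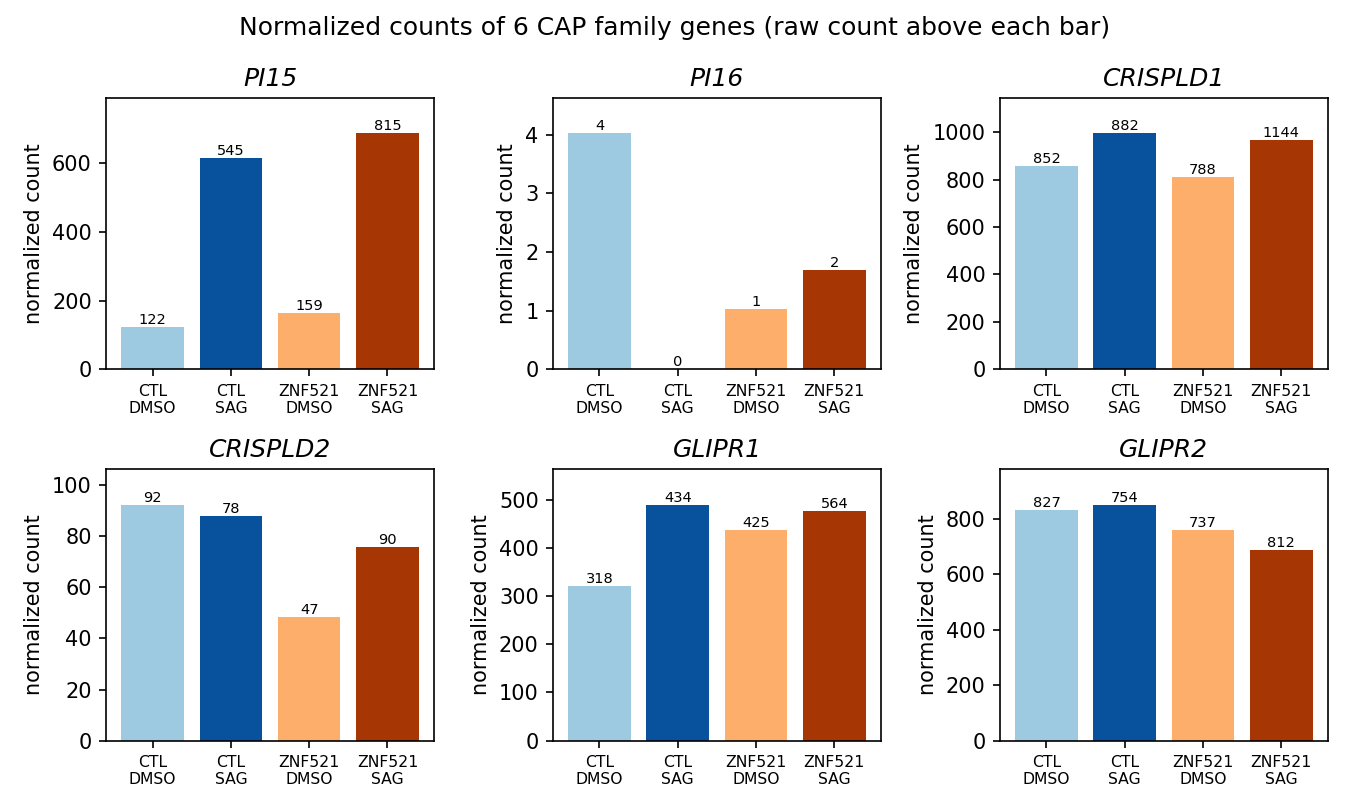
Normalized counts of the 6 genes, 1 bar per library and no replicates, with the raw count printed above each bar and a separate vertical scale for each gene. PI15 stands at 122.6 and 163.6 in the DMSO libraries and at 614.6 and 687.6 in the SAG libraries, while GLIPR2 stays between 685.1 and 850.3.

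The relatives differed far less with SAG than PI15, which was picked for its rise, so that this contrast is no separate result. None of the 4 that could be tested passed. In edgeR's quasi-likelihood test 0 of the 4 were past an adjusted p of 0.05, where 0.0401% of all tested genes rose and passed, and 0 of the 4 were at p of at most 0.05 before adjustment, where 11.3% of all were in either direction. DESeq2 and limma-trend called 0 of them at both thresholds as well. In 2 of the 4, CRISPLD1 and GLIPR1, both SAG libraries were above both DMSO libraries, an order that 25.4% of all tested genes show, and in 0 of the 4 were both below, as in 22.7% of all. The same 2 were higher in both SAG to DMSO pairs, as are 32% of all tested genes, and 0 of the 4 were lower in both, as are 29.7%.

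CRISPLD1, the closest relative of PI15 on the chromosome, had a normalized count of 856.4 in CTL_DMSO, 994.6 in CTL_SAG, 810.8 in ZNF521_DMSO and 965.2 in ZNF521_SAG. Each kind of cells had slightly more of it with SAG, at ratios of 1.16 (1.06 to 1.28) and 1.19 (1.09 to 1.31). Its log2 fold change for SAG was 0.23 (standard error 0.15, adjusted p = 0.541 from edgeR).

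GLIPR1 stood at 319.7 in CTL_DMSO, 489.4 in CTL_SAG, 437.3 in ZNF521_DMSO and 475.8 in ZNF521_SAG. CTL_DMSO was low and the others were close together. Its log2 fold change for SAG was 0.36 (standard error 0.17, adjusted p = 0.448 from edgeR), made of a ratio of 1.53 (1.32 to 1.78) in CTL cells and of 1.09 (0.958 to 1.24) in ZNF521 cells, the pair that does not use that library. In fits of SAG alone it was 0.14 without CTL_DMSO (adjusted p = 0.604 from edgeR) and 0.58 without ZNF521_DMSO (adjusted p = 0.00265 from edgeR), a fit in which 4513 of all 14805 genes passed. The SAG fold in ZNF521 cells was 0.711 times that in CTL cells, with a counting interval of 0.587 to 0.861. GLIPR1 shares 1516 bases of exon with KRR1, a ribosome assembly factor on the opposite strand, and although the libraries were stranded, whether the counting used strand is not given in the sources used here. KRR1 had normalized counts of 279.4, 546.9, 456.9 and 583.0 in the same order of libraries, again lowest in CTL_DMSO, and the part of its reads in the values of GLIPR1 was not tested.

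CRISPLD2, a secreted protein that binds lipopolysaccharide, was scarce and its values were the least precise of the 5 tested genes. It stood at 92.5 in CTL_DMSO, 88.0 in CTL_SAG, 48.4 in ZNF521_DMSO and 75.9 in ZNF521_SAG, from raw counts of 47 to 92. The DMSO library of ZNF521 cells was the low one, and the SAG and DMSO groups overlap. The ratio of SAG to DMSO was 0.951 (0.694 to 1.30) in CTL cells and 1.57 (1.09 to 2.28) in ZNF521 cells, and the log2 fold change for SAG was 0.27 (standard error 0.25, adjusted p = 0.701 from edgeR), against 0.74 without CTL_DMSO and -0.19 without ZNF521_DMSO in fits of SAG alone.

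GLIPR2 had a normalized count of 831.3 in CTL_DMSO, 850.3 in CTL_SAG, 758.4 in ZNF521_DMSO and 685.1 in ZNF521_SAG. The SAG and DMSO groups overlap, with a ratio of SAG to DMSO of 1.02 (0.925 to 1.13) in CTL cells and of 0.903 (0.817 to 0.999) in ZNF521 cells, the pair without CTL_DMSO, whose counting interval lies below 1. The log2 fold change for SAG was -0.06 (standard error 0.15, adjusted p = 0.895 from edgeR).

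PI16, named as a peptidase inhibitor like PI15, was at the limit of detection. Its raw counts were 4 in CTL_DMSO, 0 in CTL_SAG, 1 in ZNF521_DMSO and 2 in ZNF521_SAG. It did not pass the filter of 10 counts in 2 libraries and was not tested. A count of 0 in CTL_SAG allows a normalized count of up to 3.38, so that no difference was detectable at this depth.

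**Figure D2:**
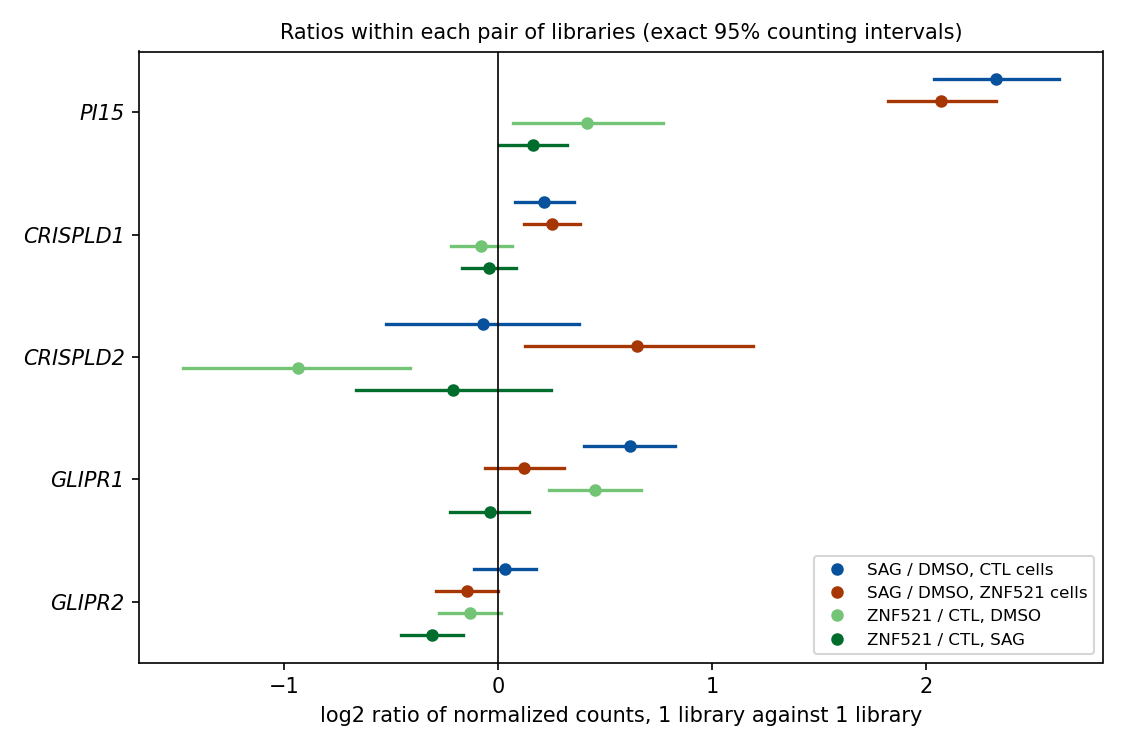
Log2 ratio of normalized counts in each of the 4 pairs of libraries for the 5 tested genes, with exact 95% intervals that cover counting error only. The ratios of PI15 for SAG are 2.33 and 2.07, while those of its relatives for SAG run from -0.15 to 0.65.

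With ZNF521, none of the 5 tested genes passed the adjusted threshold. edgeR called 0 of 5 at an adjusted p of 0.05, where 0.00668% of all tested genes passed, and 1 of 5, CRISPLD2, at p of at most 0.05 before adjustment, where 5.48% of all did (2.36% higher and 3.11% lower). At the unadjusted threshold limma-trend called 1 of them and DESeq2 0. No value of this comparison was used to choose the genes. None of the 5 was higher in both ZNF521 libraries than in both CTL libraries, as 13.3% of all tested genes are. CRISPLD2 and GLIPR2 were lower in both ZNF521 libraries than in both CTL libraries, as are 13% of all tested genes, and with CRISPLD1 3 were lower in both pairs, as are 24.1%. The log2 fold change of CRISPLD2 was -0.56 (standard error 0.25, unadjusted p = 0.0463 and adjusted p = 0.91 from edgeR). In fits of ZNF521 alone without 1 library it ran from -0.92 without ZNF521_SAG to -0.25 without ZNF521_DMSO, and the unadjusted call was lost without ZNF521_DMSO and without CTL_DMSO (-0.48). The ratio of ZNF521 to CTL cells was 0.523 (0.360 to 0.751) with DMSO and 0.863 (0.630 to 1.18) with SAG, so that most of this difference came from the DMSO pair. CTL_DMSO is the reference of that pair, but at 92.5 it was close to CTL_SAG at 88.0. The low library was ZNF521_DMSO, at 48.4. For GLIPR2 the ratios were 0.912 (0.825 to 1.01) with DMSO and 0.806 (0.729 to 0.891) with SAG, and the log2 fold change was -0.23 (standard error 0.15, adjusted p = 0.963 from edgeR).

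PI15 had a slightly higher count in ZNF521 cells under each treatment, a pattern that 26% of all tested genes share. The ratio was 1.33 (1.05 to 1.70) with DMSO and 1.12 with SAG, where the interval on the log2 scale was 0.0037 to 0.32, and the log2 fold change was 0.26 (standard error 0.17, adjusted p = 0.963 from edgeR). Without CTL_SAG, in a fit of ZNF521 alone that sets ZNF521_DMSO and ZNF521_SAG against CTL_DMSO, PI15 was at 1.80 (adjusted p = 5.64e-15 from edgeR), a value that holds the SAG difference of PI15, in a fit in which 2340 of all 14857 genes passed, and without ZNF521_SAG it was at -1.18. GLIPR1 was higher in ZNF521_DMSO, at a ratio of 1.37 (1.18 to 1.59), but not with SAG, at 0.972 (0.856 to 1.10), and its log2 fold change was 0.19 (standard error 0.17, adjusted p = 0.984 from edgeR), against 0.50 in that same fit without CTL_SAG (adjusted p = 0.0446 from edgeR) and -0.094 without CTL_DMSO. CRISPLD1 was at -0.07 (standard error 0.15, adjusted p = 0.989 from edgeR), with ratios of 0.947 and 0.970.

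To compare the genes with each other, normalized counts were divided by the length of their exons, as a level per kb. GLIPR2 was the most abundant in each library, at 224.2 to 278.3 per kb, followed by CRISPLD1 at 178.1 to 218.5, and these ranges do not overlap, although the lowest value of GLIPR2 and the highest of CRISPLD1 are close. GLIPR1 ran from 51.5 to 78.8 per kb. PI15 had 17.1 per kb in CTL_DMSO and 22.9 in ZNF521_DMSO, below GLIPR1, and 85.8 in CTL_SAG and 96.0 in ZNF521_SAG, above GLIPR1. CRISPLD2 followed at 6.07 to 11.6 per kb, and PI16 was last at 0 to 1.74.

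PI15 thus made up 3.16% of the summed level of the 6 genes in CTL_DMSO and 12.8% with SAG, and 4.34% and 15.5% in ZNF521 cells. Among 19803 genes with a length, PI15 moved from percentile 43.7 to 69.6 in CTL cells and from 47.5 to 71.8 in ZNF521 cells, while GLIPR2 stayed between percentiles 86.2 and 88.8. With the longest transcript as the length, 22 of the 24 ranks were the same, and in CTL_DMSO CRISPLD2, at 20.2 per kb, then stood above PI15, at 18.2.

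**Figure D3:**
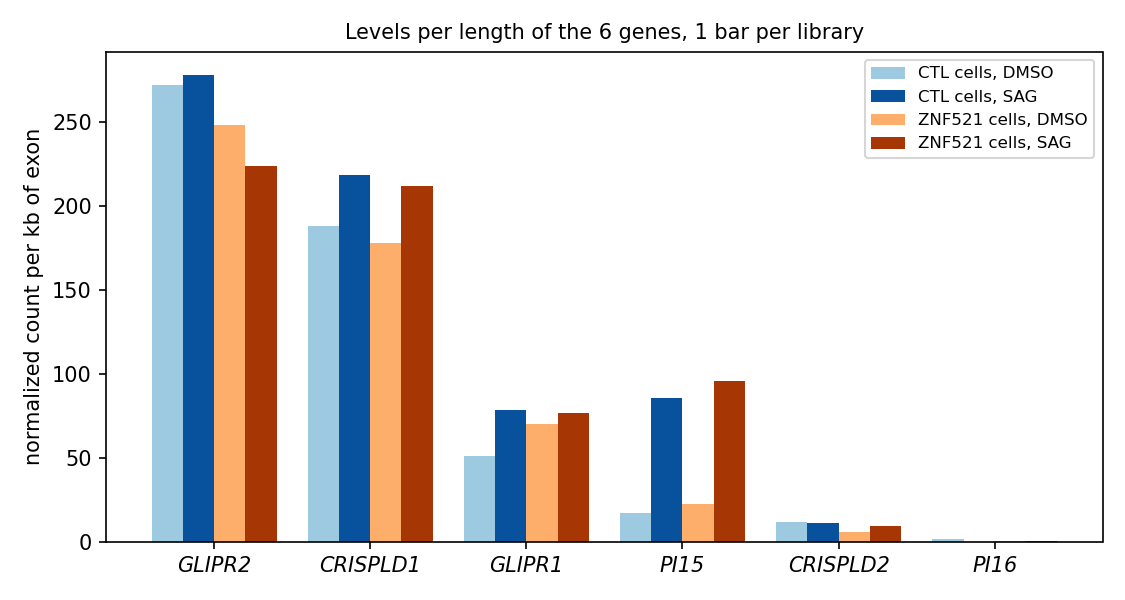
Normalized count per kb of exon of the 6 genes, 1 bar per library, ordered by their mean. GLIPR2 and CRISPLD1 lead in each library, and PI15 passes GLIPR1 in the SAG libraries, at 85.8 against 78.8 and at 96.0 against 76.6.

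The fold changes of both comparisons moved with the GC content of transcripts, whose part in the values of these genes was not tested, and the family spans a wide range of it. Over all tested genes, the median log2 fold change for SAG was 0.25 where GC content was lowest (the first of the 5 equal groups of genes) and -0.24 where it was highest, and for ZNF521 0.12 and -0.09. Both comparisons use CTL_DMSO, the library that stands apart, and these medians were not computed without it. PI15 has the lowest GC content of the 5 tested genes, at 33.0%, and only 0.253% of tested genes are lower. GLIPR1 is at 35.9%, CRISPLD1 at 38.9%, GLIPR2 at 50.4% and CRISPLD2 at 51.0%.

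Set against the median of tested genes of like GC content, in 20 bins, PI15 remained 1.89 higher for SAG on the log2 scale, where its bin had a median of 0.30. CRISPLD1 did not stand off from its bin, with a difference of -0.0029, nor did GLIPR1, with 0.06, although both were higher in both SAG libraries. CRISPLD2 was 0.31 above its bin and GLIPR2 -0.01 from it. For ZNF521 the differences from the bin were 0.08 for PI15, 0.01 for GLIPR1, -0.17 for CRISPLD1, -0.19 for GLIPR2 and -0.52 for CRISPLD2. These are values with no test, and the bins rest on fits that include CTL_DMSO.

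**Figure D4:**
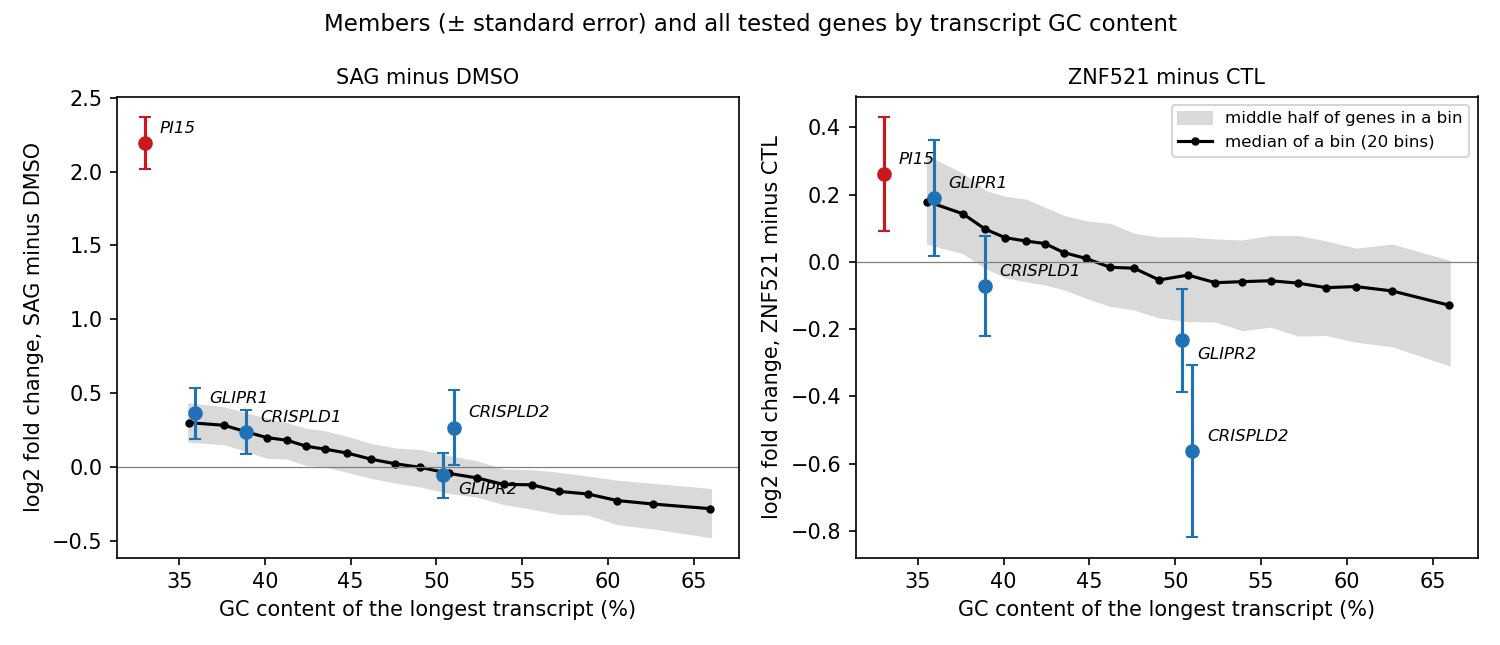
Log2 fold change of the 5 tested genes for SAG (left) and ZNF521 (right, on its own scale) against the GC content of the longest transcript, with standard errors, and the median and quartiles of all tested genes in 20 bins. PI15 lies at 2.19 for SAG where its bin has a median of 0.30, and CRISPLD1 and GLIPR1 lie close to the line of medians.

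PI15 and CRISPLD1 are neighbours on chromosome 8, with starts 160.0 kb apart on the same strand, and CRISPLD1 is the only tested gene that starts within 200 kb of PI15. CRISPLD1 spans 74984505 to 75034558. Within 1000 kb of the start of PI15, 9 genes were tested besides PI15. All 9 had a log2 fold change above 0 for SAG, as did 50.1% of all tested genes. Their values ran from 0.07 to 0.77 with a median of 0.34, against a median of 0.00055 over all tested genes. In ZNF521 cells, the pair without CTL_DMSO, CASC9 was lower with SAG (59.7 to 38.8 normalized counts) and the others were higher. UBE2W went from 226.4 to 286.0 in that pair, against 156.8 to 286.4 in CTL cells. TMEM70 went from 334.4 to 368.7, against 227.2 to 377.8 in CTL cells. LY96 went from 34.0 to 58.2, against 22.1 to 37.2 in CTL cells. With edgeR's p, unadjusted and at most 0.05, 3 of the 9 were higher, where 6.21% of all tested genes were, and 0 passed the adjusted threshold. These were UBE2W, an enzyme that attaches ubiquitin (0.59), TMEM70, an assembly factor of ATP synthase (0.43), and LY96, a partner of the receptor TLR4 (0.77), named after their values were seen. Their starts lie at -946, -852 and -833 kb from that of PI15, the far end of the window. The 9 genes have a median GC content of 36.0%, and after subtraction of the median of their GC bin the median was 0.04, with 6 of 9 above it. For ZNF521, 6 of the 9 were above 0, as were 49.4% of all tested genes, with a median of 0.20, and 0.05 after the same subtraction.

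**Figure D5:**
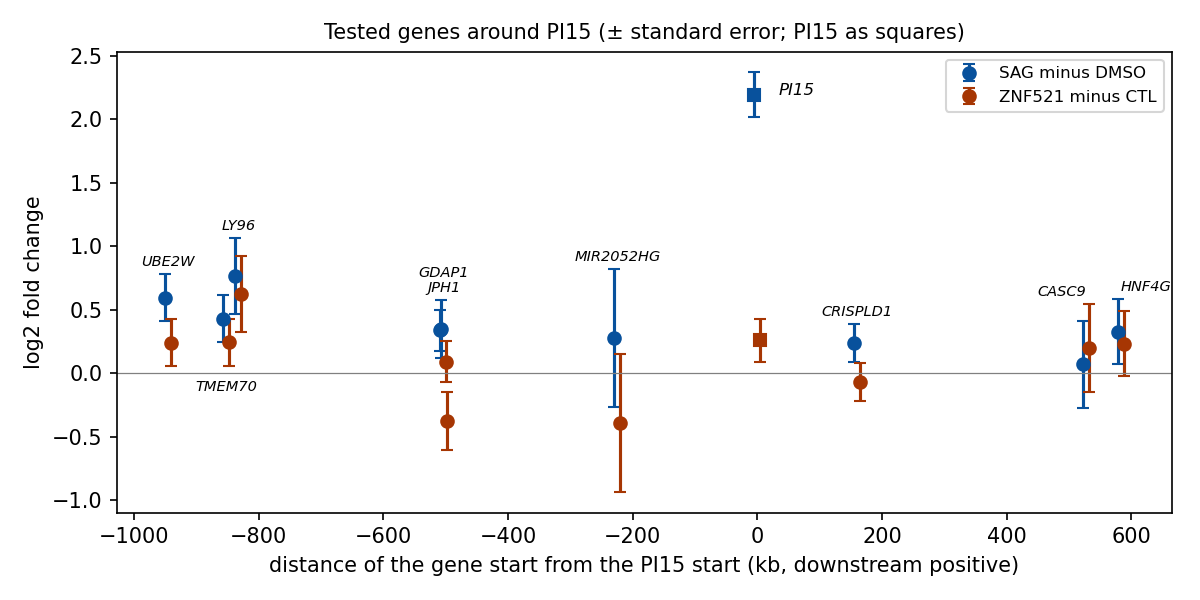
Log2 fold change, with standard errors, of the 9 tested genes that start within 1000 kb of PI15 and of PI15 itself (squares), against the distance of their starts in kb. The 2 comparisons are set slightly apart to keep the points visible, and all 9 neighbours lie between 0.07 and 0.77 for SAG while PI15 lies at 2.19.

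The other relatives lie elsewhere in the genome. GLIPR1 spans 75480753 to 75503863 of chromosome 12, GLIPR2 36136536 to 36163913 of chromosome 9, CRISPLD2 84819985 to 84920768 of chromosome 16 and PI16 36948263 to 36964837 of chromosome 6, each on the plus strand. Over all tested genes, 50.1% were above 0 for SAG. Around GLIPR1, 6 of 6 tested genes within 1000 kb were above 0 for SAG (median 0.25, and -0.05 after subtraction of their GC bins). In ZNF521 cells, the pair without CTL_DMSO, BBS10 was lower with SAG (331.3 to 310.5 normalized counts) and the others were higher. Around GLIPR2 7 of 24 were above 0 (median -0.11), around CRISPLD2 7 of 17 (median -0.02) and around PI16 11 of 20 (median 0.02).

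The rest of the CAP family was nearly silent in DAOY cells. Of 9 further CAP genes 1 passed the filter, CLEC18B, which joins the domain to a C-type lectin fold. Its raw counts were 10, 8, 6 and 13 in CTL_DMSO, CTL_SAG, ZNF521_DMSO and ZNF521_SAG, and its log2 fold change was 0.32 for SAG and -0.17 for ZNF521 (standard error 0.55 for each, adjusted p of 0.838 and 0.991 from edgeR). The sperm and saliva proteins CRISP1, CRISP2 and CRISP3 had at most 4 counts in a library. GLIPR1L1, a testis gene of the GLIPR1 cluster on chromosome 12, had 3, 7, 3 and 10 counts in the same order and was not tested, and GLIPR1L2 had 8, 1, 4 and 5. R3HDML, CLEC18A and CLEC18C had at most 4.

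None of the other inhibitors of proteases that were tested passed a threshold upward with SAG. Of 35 listed, which include serpins, Kunitz and Kazal inhibitors and cystatins, 28 were tested, of which 10 were higher and 18 lower with SAG, with a median log2 fold change of -0.11. With edgeR's p, unadjusted and at most 0.05, 0 were higher and 3 lower, where 6.21% and 5.12% of all tested genes were, and 0 passed the adjusted threshold. The lower ones were PAPLN, a papilin of the matrix (-0.58), and SPINT2 and SPINT1, Kunitz inhibitors of the proteases that activate hepatocyte growth factor (-0.80 and -0.44). PI3, the elastase inhibitor elafin, was scarce and at 1.05 (standard error 0.52, adjusted p = 0.461 from edgeR). Its normalized counts were 6.03 in CTL_DMSO, 24.8 in CTL_SAG, 11.3 in ZNF521_DMSO and 12.7 in ZNF521_SAG. Most of its difference thus lay in the pair that uses CTL_DMSO. With ZNF521, 2 of the 28 were higher and 1 was lower at p of at most 0.05 before adjustment in edgeR. Over all tested genes 2.36% were higher and 3.11% lower at that threshold, and 0 of the 28 passed the adjusted one. The higher ones were SPOCK1 (0.48) and SPINK2 (1.42), and the lower one was the broad inhibitor A2M (-0.86). SPINK2 was scarce, with normalized counts from 4.02 in CTL_DMSO to 15.4 in ZNF521_DMSO (standard error 0.58, adjusted p = 0.907 from edgeR).

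Among proteases that such inhibitors could meet, 15 of 28 listed serine proteases and their receptors were tested. With SAG 7 were higher and 8 lower, with a median of -0.03. Of these, 0 reached an unadjusted p of 0.05 in edgeR, where 11.3% of all tested genes did. The smallest p belonged to PRSS23, a secreted serine protease (0.26, adjusted p = 0.503 from edgeR), and to F2RL1, a receptor that trypsin cleaves (0.24, adjusted p = 0.521 from edgeR). With ZNF521 1 was lower and 0 were higher at that threshold, where 3.11% and 2.36% of all tested genes were. The lower one was HTRA1, a secreted protease that cleaves matrix proteins (-0.40, adjusted p = 0.893 from edgeR). PRSS3, a trypsin, had normalized counts of 106.6, 126.3, 145.1 and 136.7 in CTL_DMSO, CTL_SAG, ZNF521_DMSO and ZNF521_SAG.

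The genes whose profile over the 4 libraries was closest to that of PI15, by the Euclidean distance of centred log2 values among the 12093 genes whose normalized counts averaged 50 or more, were PDGFRA, GLI1, SLC8A3, NPR3 and SCN9A, at distances of 0.775, 0.877, 1.03, 1.06 and 1.18. PDGFRA, a growth factor receptor, had normalized counts of 33.2, 101.5, 46.3 and 111.4 in CTL_DMSO, CTL_SAG, ZNF521_DMSO and ZNF521_SAG, low and high in the same libraries as PI15. GLI1 had 75.4, 323.7, 44.2 and 318.1, and unlike PI15 was lower in the DMSO library of ZNF521 cells than in that of CTL cells. PI15 was chosen for its rise with SAG, so genes close to its profile are higher with SAG by construction. Their likeness to PI15 is no separate result. With 4 libraries, correlation cannot order such genes, since 127 of the 12093 had a Pearson r above 0.99 with PI15.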

How the data were processed

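RNA of 4 DAOY libraries was analysed, 1 for each group. Per the processing notes and the methods, STAR 2.7.0e was used by the authors both to align the paired reads (hg38) and to make the raw counts per gene. The deposited signal values of the normalized table are these counts, which the authors divided by 1 size factor per library (0.887 to 1.19). The annotation and the strand setting of the counting are not given in the sources used here.

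Genes that reached 10 counts in 2 or more libraries, 14970 in all, entered edgeR 4.0.16 under R 4.3.3 (quasi-likelihood F-test, TMM factors), with SAG and ZNF521 as additive terms, in place of the study's paired test on normalized values. This leaves 1 residual degree of freedom, with 11.7 prior degrees of freedom. P-values were adjusted by Benjamini-Hochberg over all tested genes. The residual is the departure of these libraries from additive effects, moderated across genes, and not a spread between replicates. A SAG difference that changes with ZNF521 therefore counts as spread in the p-values and standard errors. Nothing states separate cultures. The standard error is the fold change over the root of F. Alternatives included limma 3.58.1 and DESeq2 1.42.0. On simulated counts of 14970 genes, 85 of 100 2-fold changes were recovered for SAG and 73 of 100 for ZNF521, with 14 and 13 false calls. The simulation also held 100 4-fold changes for each comparison and no library that stood apart. In the real fits 6 and 1 genes passed, so these shares do not give the power to detect a change in the genes described here. GENCODE 44 gave positions, lengths and GC content, with 19803 of 20363 symbols matched.

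The genes and lists were chosen with earlier results of these data known. Named genes were all 6 relatives, other CAP genes past the filter, up to 4 genes of smallest p in each list, genes within 200 kb of PI15, the 5 nearest profiles and GLI1 and ZNF521 as checks. Chosen outside this rule, after their values were seen, were KRR1 for its overlap, UBE2W, TMEM70, LY96, CASC9 and BBS10, and the CAP genes below the filter.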

Additional observations from a re-analysis of the deposited data

Results flagged for a closer look

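Of the 5 tested genes, 3 had 2 within-pair ratios on opposite sides of 0 on the log2 scale, with 1 library behind each value, and the differences were not tested. For SAG, CRISPLD2 was at -0.072 in CTL cells and at 0.65 in ZNF521 cells, and the counting interval includes 0 in the first pair and not in the second. GLIPR2 was at 0.033 in CTL cells and at -0.15 in ZNF521 cells for SAG. For ZNF521, GLIPR1 was at 0.45 with DMSO and at -0.041 with SAG. The SAG fold of GLIPR1 in ZNF521 cells was 0.711 times that in CTL cells and that of CRISPLD2 1.65 times, and their counting intervals (0.587 to 0.861 and 1.04 to 2.63) exclude 1. The first pair of each of the 3 genes uses CTL_DMSO, the library that stands apart. For CRISPLD2 the low library was ZNF521_DMSO, at 48.4 normalized counts, which is in the second pair.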

How the results depend on the processing

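The log2 fold change of PI15 for SAG ran from 1.99 to 2.40 over fits without 1 library and was 1.89 after subtraction of its GC bin. A fit without 1 library has the tested factor alone and leaves 1 group with a single library, assumed to vary like the rest, and it unbalances the other factor. The range for PI15 and ZNF521 was thus -1.18 to 1.80, with -0.51 without CTL_DMSO and -1.18 without ZNF521_SAG. It passed at 1.80 (adjusted p = 5.64e-15 from edgeR) without CTL_SAG, where ZNF521_DMSO and ZNF521_SAG are set against CTL_DMSO alone. The number of the 5 tested genes called for ZNF521 was 0 to 2 over these fits (0 to 3 at the unadjusted threshold, against 1 with all libraries), and that of the relatives for SAG 0 to 1 (0 to 2 at the unadjusted threshold). GLIPR1 passed for SAG without ZNF521_DMSO (0.58, adjusted p = 0.00265 from edgeR), where 4513 of 14805 genes passed, and for ZNF521 without CTL_SAG (0.50, adjusted p = 0.0446 from edgeR), where 2340 of 14857 did. At the unadjusted threshold, ZNF521 gave 0 calls by DESeq2, by the paired limma with the study's filter and with no block, and SAG gave 1, GLIPR1, with no filter on low counts. Directions turned for CRISPLD1 and ZNF521 (0.038 without CTL_SAG, 0.058 without ZNF521_DMSO, range -0.21 to 0.058), GLIPR1 and ZNF521 (-0.094 without CTL_DMSO, -0.041 in the SAG pair), CRISPLD2 and SAG (-0.19 without ZNF521_DMSO, range to 0.74), GLIPR2 and SAG (0.0044 without CTL_DMSO, 0.095 without ZNF521_SAG, range from -0.22) and CRISPLD1 and SAG (-0.0029 against its GC bin). Where no construction is named, the cause was not tested. Of the 5 nearest profiles 0 were shared under correlation and 3 at a mean count of at least 200. The ratio within each pair was added after the data were seen. No block of replicates could be fitted, since the labels number none and each group has 1 library. The libraries were paired by the other factor, as the block of the additive fit and in the paired limma. Calls over all genes for SAG were 6 in edgeR, 223 with no filter on low counts, 0 with no block or the study's filter, and 0 to 4513 without 1 library, and for ZNF521 1, 100, 1, 0 and 0 to 2340.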

Other observations

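LCCL domains, which CRISPLD1 and CRISPLD2 carry beside the CAP domain, occur in 4 other listed genes, all tested. For ZNF521 3 of the 4 had values below 0 and the median over the 4 was -0.31 on the log2 scale, against -0.0034 over all tested genes, and 2 of the 4 reached p of at most 0.05 before adjustment in edgeR, where 3.11% of all tested genes were lower. COCH, the cochlin of the inner ear matrix, had normalized counts of 395.0, 359.7, 280.9 and 252.3 in CTL_DMSO, CTL_SAG, ZNF521_DMSO and ZNF521_SAG, so that both ZNF521 libraries were below both CTL libraries. Its log2 fold change was -0.51 (standard error 0.16, adjusted p = 0.823 from edgeR). VIT, the matrix protein vitrin, was scarce at 22.1, 16.9, 4.12 and 8.44 in the same order (-1.60, standard error 0.52, adjusted p = 0.837 from edgeR). The membrane proteins DCBLD2 and DCBLD1 were at -0.10 and 0.09. For SAG 0 of the 4 reached the unadjusted threshold, with a median of 0.05.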
